A study of Mus musculus with 8 samples.

Results

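Transcripts of the endoplasmic reticulum (ER) protein-folding machinery and of the unfolded protein response (UPR) were examined in 8 heart libraries, 4 from wild-type (WT) and 4 from TAZG197V mice. The set holds 34 genes, picked by symbol for their known roles: chaperones and co-chaperones (11 genes), protein disulfide isomerases (4), stress sensors and their transcription factors (4), ER-associated degradation factors (8), translocon and signal peptidase subunits (6), and Wfs1. All 34 had a row among the 55471 gene rows of each library, and 33 of them were among the 15084 genes abundant enough to be tested. The exception was Derl3. TAZG197V mice carry a knock-in missense change, made by CRISPR/Cas9, that replaces glycine 197 with valine in Tafazzin, the enzyme that remodels cardiolipin, the signature lipid of the mitochondrial inner membrane. Loss of Tafazzin function causes Barth syndrome, a multisystem disorder that includes cardiomyopathy. The study used hemizygous mutant males, bred from heterozygous females and WT males (Taz lies on the X chromosome), and the mice were 14 weeks old. No treatment was given. The line was founded in C57BL/6N zygotes and then crossed with C57BL6/J, so both substrains entered its background. Each library came from a small piece of heart, and the part of the heart is not given in the sources used here.

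The ER folds secreted and membrane proteins with the help of the Hsp70 chaperone BiP, of lectin chaperones and of disulfide isomerases. When unfolded proteins build up, 3 sensors in the ER membrane, IRE1 (gene Ern1), ATF6 and PERK (gene Eif2ak3), start the UPR. ATF6 is cut by the Golgi proteases encoded by Mbtps1 and Mbtps2, and IRE1 splices the Xbp1 transcript, after which ATF6 and XBP1 raise transcription of chaperones and degradation factors. PERK slows translation and favours synthesis of the transcription factor ATF4, which kinases outside the ER can also induce. In heart muscle most of the ER is organised as the sarcoplasmic reticulum, the calcium store of contraction. Gene counts do not separate spliced from unspliced Xbp1, so IRE1 activity was not measured here.

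ATF6 and XBP1 act through short promoter elements, and the sites of the genes on which the results turn are shown first. The 250 bases before each start annotated by RefSeq (GRCm38.p6) were searched on both strands, and 28 of the 34 genes had a promoter sequence in the table used. Atf6, Derl1, Hyou1, Manf, Sec61a1 and Spcs3 had no entry. The ER stress element ERSE, a CCAAT box followed by 9 bases of any kind and CCACG, was found in 9 of 28 members. Over all genes with a promoter sequence it was found in 35 of 27025 genes (0.13%), or 37 of 32851 promoters (0.113%). Each site below is 30 bases long and reads 5′ to 3′ on the strand that carries the element, with the fixed letters of the element in capitals.
Hspa5 ERSE, chr2:34772020-34772049, plus strand: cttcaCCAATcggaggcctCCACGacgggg
Hsp90b1 ERSE, chr10:86705632-86705661, minus strand: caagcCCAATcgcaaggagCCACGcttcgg
Hsp90b1 second ERSE, chr10:86705528-86705557, plus strand: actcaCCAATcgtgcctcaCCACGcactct
Calr ERSE, chr8:84847070-84847099, plus strand: atgggCCAATgagggtcgaCCACGcgttgt
Canx ERSE, chr11:50325794-50325823, minus strand: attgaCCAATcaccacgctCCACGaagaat
Dnajc3 ERSE, chr14:118937822-118937851, plus strand: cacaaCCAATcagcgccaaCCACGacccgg

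The other 4 members with an ERSE were Creld2, Pdia6, Syvn1 and Derl3. No whole ERSE was found in the Herpud1 window. That window ended in CCAAT, 9 bases and CCAC, so the last letter of a possible ERSE was not read. Herpud1 held the shorter ERSE-II, ATTGG and CCACG with 1 base between them, which occurred in 0.0304% of all promoters. It also held the letters of a C/EBP-ATF response element (CARE, the binding motif of ATF4), TGATGNAA, found in 3.45% of all promoters. Hspa5 held a core UPR element (UPRE) that XBP1 binds, TGACGTG, found in 1.65% of all promoters. ERSE and ERSE-II share the letters CCACG and, on opposite strands, the CCAAT box, but no 2 of the sites found overlapped. These 3 sites are given in the same way.
Herpud1 ERSE-II, chr8:94386368-94386397, plus strand: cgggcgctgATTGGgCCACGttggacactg
Herpud1 CARE, chr8:94386306-94386335, minus strand: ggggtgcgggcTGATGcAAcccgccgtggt
Hspa5 UPRE, chr2:34771922-34771951, plus strand: gggcgtagcaaTGACGTGagttgcggagga

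The first base of the element, counted along the gene, lay 65 bases before the RefSeq start for the ERSE of Hspa5, 162 for Calr, 105 for Dnajc3, and 212 and 107 for Hsp90b1. In Herpud1 the ERSE-II lay 52 bases and the CARE 112 bases before the start. GENCODE M21 places the start of Hspa5 further upstream, so that its ERSE falls inside the annotated gene there. Only exact letters were searched, so variant elements were not counted. The Hspa5 window, for example, also held CCAAT, 9 bases and CCAAC. A match of letters is a description of the sequence and was not tested for binding.

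Of the 33 members tested, 13 were higher and 4 were lower in TAZG197V hearts, and 16 did not pass. To be called, a gene needed an adjusted p under 0.05 (quasi-likelihood F-test of edgeR, Benjamini-Hochberg over all genes tested), a change of more than 15% in the fitted level and a mean scaled count of at least 50. By this rule 33.5% of all genes were called, 18.5% as higher and 15.1% as lower, against 51.5% of the members. Among genes that reached the mean count of 50, 40.9% were called. The median log2 fold change was 0.16 over the members and -0.01 over all genes, and the median size of the change regardless of sign was 0.22 and 0.26. The members spanned -0.50 to 1.80. The genotypes did not overlap in 17 members, 16 with all TAZG197V libraries above (19.3% of all genes) and 1 with all below (13.9%). With a 1.5-fold minimum 5 members stayed, all higher, where 12.2% of all genes did.

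**Figure D1:**
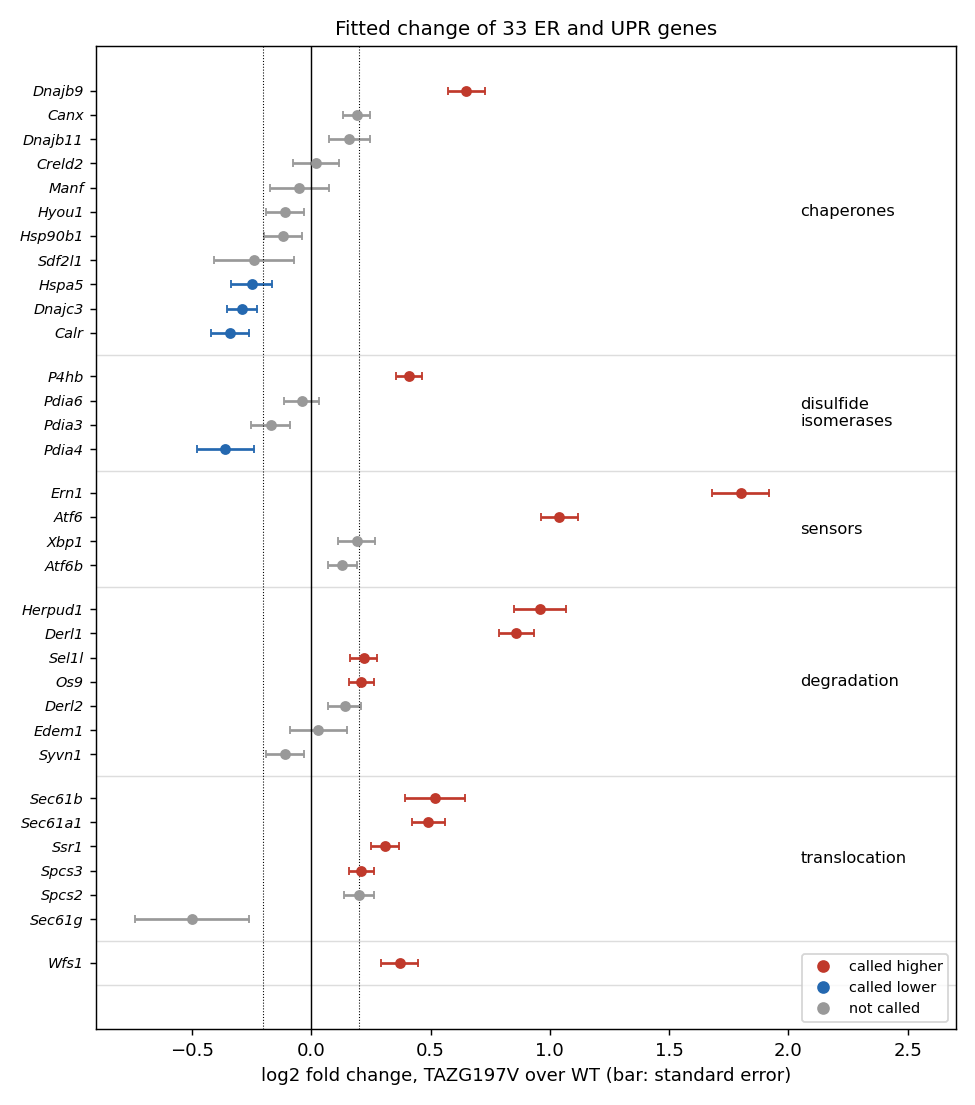
Fitted log2 fold change, TAZG197V over WT, of the 33 tested members by role, with standard errors; dotted lines mark the minimum change of 15%. Ern1 and Atf6 lie furthest to the right at 1.80 and 1.04, and the chaperone panel spreads around 0 from -0.34 to 0.65.

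Levels are given as counts scaled to library size (CPM, with TMM factors), in the order of libraries 1 to 4, with mean ± SD (n = 4 per genotype) and log2 fold changes with their standard errors (SE). In bulk tissue a change in the share of a cell type and a change in RNA per cell cannot be told apart. Summed CPM of 7 cardiomyocyte markers ranged from 57940 to 66460 in WT and from 49690 to 53750 in TAZG197V, and 3 of the 7 were called lower. Fibroblast markers summed to 1138 to 1848 in WT and 789.8 to 1148 in TAZG197V (3 of 6 lower), endothelial markers to 698.2 to 972.4 and 574.7 to 709.6 (2 of 5 lower), and macrophage markers to 151.7 to 176.7 and 139.7 to 217.1 (0 of 5 called). Smooth muscle and pericyte markers summed to 822.7 to 969.7 in WT and 757.4 to 923.5 in TAZG197V, and all 5 were called, 4 lower and 1 higher. No marker of these cell types was at 0 in any library. Atrial markers stood apart in WT 2, with a sum of 1093 against 4.24 to 130 elsewhere (2 of 3 tested called lower), as did adipocyte markers, with 40.2 against 0.355 to 6.02, and 2 of the 5 adipocyte markers were tested and called lower. WT 4 stood apart in red cell markers, with 55070 CPM (227.3 to 1065 elsewhere; 6 of 6 called lower). WT 4 and TAZG197V 4 stood apart in brain markers, with 181.3 and 299.5 CPM (38.5 to 78.9 in the other 6; of 5 tested, 1 was called higher and 2 lower). The part of these cell types in the member results was not tested. Counts per library ranged from 23055689 to 36301031, and every tested member except Sdf2l1, Sec61b and Sec61g had a mean above 10 CPM. The edited gene Taz was at 60.9 ± 2.36 CPM in WT and 47.3 ± 2.60 CPM in TAZG197V, a log2 fold change of -0.37 (adjusted p = 0.00124). Gene counts do not show the edited base.

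Among the sensors, Ern1 and Atf6 were higher and Xbp1 and Atf6b did not pass. Ern1 (ENSMUSG00000020715, chromosome 11, 106394650 to 106487852, minus strand, mm10), the kinase and RNase that splices Xbp1, was at 21.9, 23.9, 24.3 and 26.9 CPM in WT. In TAZG197V it was at 96.6, 74.9, 97.8 and 73.8 CPM. Every TAZG197V library lay above every WT library by a wide margin, and the fitted difference was 3.49-fold (log2 fold change 1.80, SE 0.119, adjusted p = 2.5e-05). Within lane 7, which carried libraries 1 and 2 of each genotype, the difference in mean log2 CPM was 1.89, and within lane 8, which carried libraries 3 and 4, it was 1.73.

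Atf6 (ENSMUSG00000026663, chromosome 1, 170704674 to 170867771, minus strand) was at 164.5, 154.5, 193.4 and 166.6 CPM in WT and at 394.4, 337.5, 371.6 and 312.6 CPM in TAZG197V. The groups did not overlap, with means of 169.8 ± 16.6 and 354 ± 36.2 CPM and a log2 fold change of 1.04 (SE 0.0762, adjusted p = 4.3e-05). Xbp1, whose transcript is the substrate of IRE1, was at 59.8, 67.0, 70.3 and 71.6 CPM in WT and at 80.2, 83.1, 74.3 and 71.9 CPM in TAZG197V. Its groups did not overlap either, although WT 4 and TAZG197V 4 were nearly equal, and the log2 fold change of 0.19 did not pass (SE 0.0768, adjusted p = 0.0811). Without TAZG197V 4 it was called, at 0.27 (adjusted p = 0.033), and without WT 4 at 0.25 (adjusted p = 0.0327), while without WT 1 it was 0.12 (adjusted p = 0.23). Atf6b, the paralog of Atf6, was at 19.6 CPM in WT and 21.7 CPM in TAZG197V (log2 fold change 0.13, adjusted p = 0.12).

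Degradation of misfolded ER proteins was represented by 7 tested genes, of which 4 were higher, 0 were lower and 3 did not pass (median log2 fold change 0.21). Herpud1 (chromosome 8, 94386438 to 94395377, plus strand), a membrane scaffold of the HRD1 ubiquitin ligase complex, was at 223.1, 188.7, 187.9 and 179.0 CPM in WT. In TAZG197V it was at 346.0, 359.3, 336.1 and 480.9 CPM. The highest value belonged to TAZG197V 4, the groups did not overlap, and the log2 fold change was 0.96 (SE 0.109, adjusted p = 0.000336). Without that library the log2 fold change was the lowest of the omissions, 0.80. This is the member whose promoter held the ERSE-II and CARE letters shown above.

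Derl1, a rhomboid-like membrane protein of the retrotranslocation machinery, was at 57.4, 59.2, 59.2 and 63.3 CPM in WT and at 113.7, 121.1, 110.0 and 93.8 CPM in TAZG197V. Values were close together in WT and all higher in TAZG197V, with a log2 fold change of 0.86 (SE 0.0728, adjusted p = 8.8e-05), and 5.6% of its 50-base windows are also present in another gene. The lectin Os9, which hands glycoproteins to the ligase, differed by 0.21 on the log2 scale (adjusted p = 0.012), and the ligase adaptor Sel1l by 0.22 (adjusted p = 0.017). The call of Sel1l was lost without WT 1 (0.18, adjusted p = 0.0858) and without TAZG197V 1, 2 or 3 (adjusted p = 0.0622, 0.0591 and 0.0542). The ligase itself, Syvn1 (HRD1), was at -0.11 (adjusted p = 0.305; 0.02 without both number 4 libraries), the mannosidase-like Edem1 at 0.03 (adjusted p = 0.877) and Derl2 at 0.14 (adjusted p = 0.14). Without TAZG197V 4, Edem1 was called, at 0.23 (adjusted p = 0.0309), and without WT 4 it was 0.20 (adjusted p = 0.0594). Derl3 had 3 to 6 counts per library in WT and 1 to 7 in TAZG197V, so no fold was given.

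**Figure D2:**
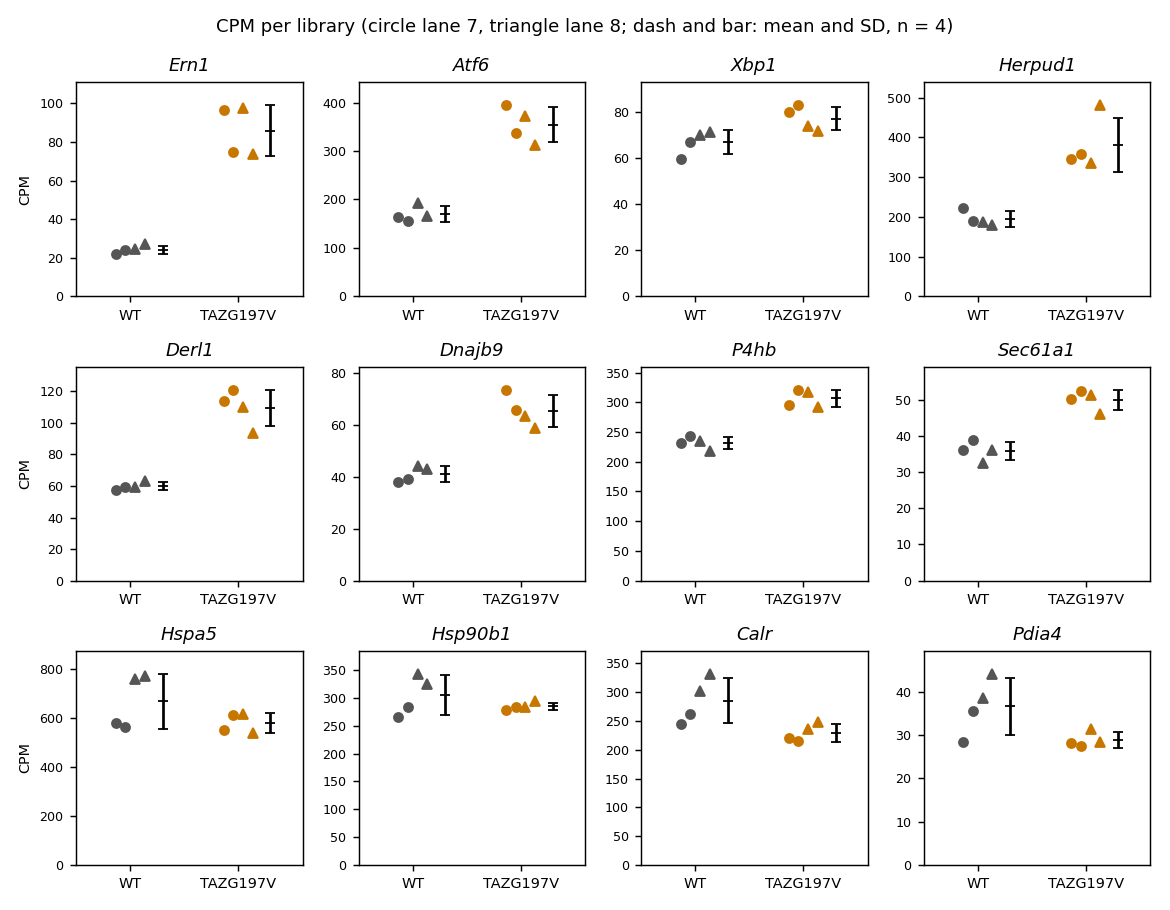
CPM of 12 members in each library, on axes that start at 0, with circles for lane 7, triangles for lane 8 and the mean with SD beside each group. The top 2 rows hold members with higher values in TAZG197V, and the bottom row holds 4 folding genes in which WT 3 and WT 4 lie above WT 1 and WT 2.

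Of 11 chaperones and co-chaperones, 1 was higher and 3 were lower, and 7 did not pass (median log2 fold change -0.11). This is 36.4% called, near the 33.5% of all genes and under the 40.9% of genes with a mean count of at least 50. Hspa5 (ENSMUSG00000026864, chromosome 2, 34771970 to 34777547, plus strand), which encodes BiP, was at 578.5, 560.4, 756.7 and 769.7 CPM in WT. In TAZG197V it was at 549.4, 611.4, 614.2 and 537.6 CPM. WT 3 and WT 4 were high, while WT 1 and WT 2 lay within the range of the mutant libraries. The means were 666.3 ± 112.2 and 578.1 ± 40.3 CPM, with a log2 fold change of -0.25 (SE 0.0849, adjusted p = 0.049). This call held in 4 of 17 alternative fits. It was lost without surrogate variables (adjusted p = 0.22), with lane as a covariate (0.199), and when any library other than WT 1 was left out (0.0754 to 0.521). The log2 fold change was -0.11 without WT 4, -0.10 without TAZG197V 4 and -0.07 without both, fits that also held 1 surrogate variable instead of 2, which by itself gave -0.20. It was -0.18 without WT 3 and -0.24 to -0.30 without WT 2 or any of TAZG197V 1 to 3. Within lane 7 the difference in mean log2 CPM was 0.03 and within lane 8 it was -0.41.

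In Hsp90b1 (GRP94), the Hsp90 of the ER, the same WT libraries were high but the test did not pass. It was at 266.5, 283.2, 343.8 and 326.1 CPM in WT and at 279.0, 284.9, 283.2 and 294.3 CPM in TAZG197V (log2 fold change -0.12, adjusted p = 0.273, -0.20 without WT 1, -0.03 without WT 3 and -0.06 without WT 4). Its exons overlap other genes over 15.7% of their length, and strand use in counting is not given in the sources used here. Calreticulin (Calr), a lectin chaperone that also binds calcium, was at 244.5, 262.9, 302.6 and 331.9 CPM in WT and at 219.7, 214.5, 236.3 and 248.3 CPM in TAZG197V. Only TAZG197V 4 reached the WT range, and the log2 fold change was -0.34 (SE 0.0792, adjusted p = 0.0111). Without WT 4 the adjusted p was 0.0537. Its membrane-bound relative calnexin (Canx) was at 345.2, 330.7, 335.8 and 349.9 CPM in WT and 395.1, 374.3, 391.0 and 394.2 CPM in TAZG197V. Those groups did not overlap, but the fold of 1.14 fell short of the minimum (adjusted p = 0.0299). Without WT 4 it was called, at 0.20 (adjusted p = 0.0232).

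The co-chaperones of BiP diverged. Dnajb9 (ERdj4), a J-domain protein of BiP, was at 37.9, 38.9, 44.3 and 43.0 CPM in WT and at 73.5, 65.5, 63.4 and 58.6 CPM in TAZG197V. Its groups did not overlap (log2 fold change 0.65, SE 0.0781, adjusted p = 0.000464), and 5.5% of its 50-base windows are also present in another gene. Dnajc3 (p58IPK), another J-domain protein of BiP, was at 66.0, 75.8, 74.1 and 73.4 CPM in WT and at 56.4, 60.1, 59.7 and 60.0 CPM in TAZG197V. All its TAZG197V libraries lay below all WT libraries, the sole member of which this held (log2 fold change -0.29, SE 0.063, adjusted p = 0.00838). The remaining 5 chaperones and co-chaperones, Hyou1, Dnajb11, Sdf2l1, Manf and Creld2, lay between -0.24 and 0.16, with adjusted p from 0.178 to 0.904. Dnajb11 was called without WT 3, at 0.26 (adjusted p = 0.024), and was 0.09 without WT 1. Sdf2l1 was -0.24, and it was -0.40 without WT 1, -0.38 without TAZG197V 3, -0.07 without WT 4 and -0.04 without TAZG197V 4, with no call in any of these. Without both number 4 libraries, Hyou1 was 0.07 (-0.11 in all libraries) and Manf 0.16 (-0.05), neither called.

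Of the 4 disulfide isomerases, 1 was higher and 1 was lower. P4hb, the main isomerase and also the beta subunit of prolyl 4-hydroxylase, was at 231.7, 242.8, 234.4 and 218.8 CPM in WT and at 294.7, 321.4, 316.6 and 292.7 CPM in TAZG197V. Its groups were far apart relative to their spread (log2 fold change 0.41, SE 0.0559, adjusted p = 0.000824). Pdia4 (ERp72) was at 28.4, 35.5, 38.6 and 44.2 CPM in WT and at 28.3, 27.5, 31.5 and 28.4 CPM in TAZG197V. WT 1 lay among the mutant libraries, and the log2 fold change of -0.36 (SE 0.119, adjusted p = 0.0421) was called in 5 of 17 alternative fits. It was lost without WT 2, 3 or 4 (adjusted p = 0.0788, 0.106 and 0.121) and without any of the TAZG197V libraries (0.0501 to 0.125), with a log2 fold change of -0.24 without WT 4 or TAZG197V 4 and of -0.41 to -0.32 without the others named here. Pdia3 (ERp57), which works with calreticulin and calnexin, was at -0.17 (adjusted p = 0.134), and Pdia6 at -0.04 (adjusted p = 0.684). Without WT 1, Pdia3 was called lower, at -0.26 (adjusted p = 0.0205), whereas it was -0.09 without WT 4 and -0.10 without TAZG197V 4.

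The folding genes differed between sequencing lanes in WT. Both lane 8 libraries lay above both lane 7 libraries in 12 of the 15 chaperones and isomerases in WT (80.0%), in 8 of the 18 other members (44.4%) and in 18.5% of all genes. In TAZG197V the same order held in 2 of the 15 (13.3%), in 3 of the 18 (16.7%) and in 16% of all genes. The median difference TAZG197V minus WT over the 15 folding genes was 0.05 in log2 CPM within lane 7 (11 above 0) and -0.26 within lane 8 (4 above 0). Over the 18 other members it was 0.32 and 0.26. With 2 libraries per genotype and lane, lane and individual samples cannot be told apart within WT. Of the 17 called members, 16 had the same sign in both lanes, and the exception was Hspa5. WT 4 also held the most plasma cell and B cell marker counts, 124.9 CPM against 12.9 to 22.1 in the other libraries (2 of 3 tested called lower in TAZG197V). The part of these cells in the levels of folding genes was not tested.

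**Figure D3:**
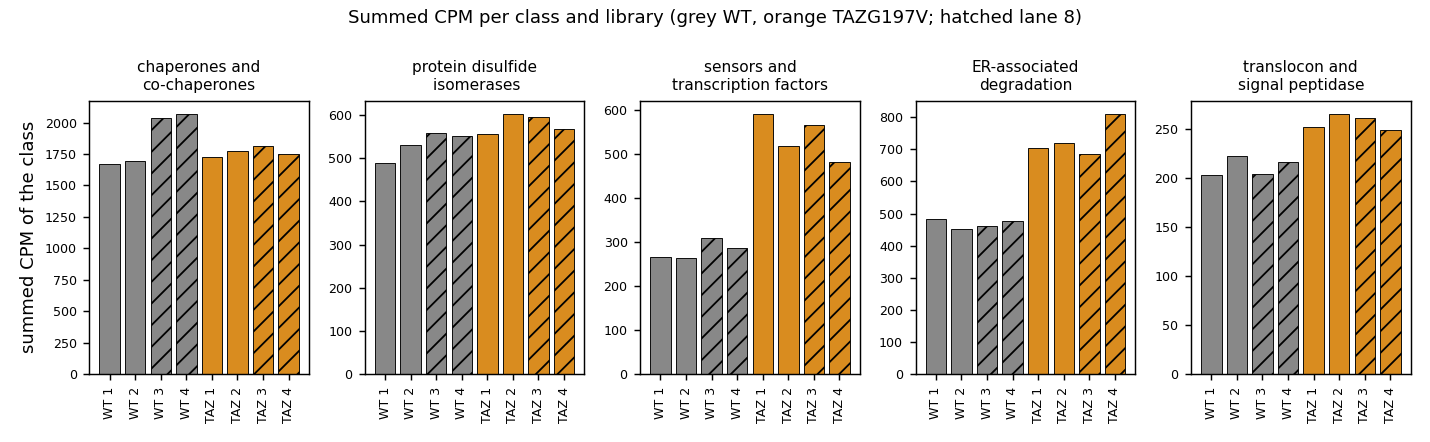
Summed CPM of the members of each role in every library (bars from 0; TAZ stands for TAZG197V; hatched bars are lane 8). Sensors and degradation factors are higher in every TAZG197V library, while chaperone sums are highest in WT 3 and WT 4, at 2034 and 2072 CPM.

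Summed over their members, chaperones were at 1674, 1694, 2034 and 2072 CPM in WT and at 1728, 1777, 1810 and 1749 CPM in TAZG197V. The mutant libraries fell between the pairs of WT libraries. Sensors summed to 280.8 ± 20.8 CPM in WT and 538.8 ± 49.4 CPM in TAZG197V, and degradation factors to 467.9 ± 14.9 and 730.0 ± 56.3 CPM. These sums carry most weight from the abundant genes and were not tested.

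Entry into the ER was represented by 6 genes, of which 4 were higher and 0 were lower (median log2 fold change 0.26). Sec61a1, the pore of the translocon, was at 36.0, 38.8, 32.5 and 36.1 CPM in WT and at 50.3, 52.5, 51.2 and 46.0 CPM in TAZG197V. The groups did not overlap (log2 fold change 0.49, SE 0.0695, adjusted p = 0.000995), although 8.2% of its exon bases overlap another gene. Sec61b, its beta subunit, was at 0.52 (adjusted p = 0.0127), with 17.4% of its 50-base windows also present in other genes, so that its level is uncertain. Ssr1, a subunit of the translocon-associated TRAP complex, was at 0.31 (adjusted p = 0.00387). Spcs3, a signal peptidase subunit, was at 0.21 (adjusted p = 0.0149), and its call was lost without WT 1 (adjusted p = 0.0579) or TAZG197V 2 (0.0567). Spcs2 was at 0.20 with an adjusted p of 0.0352 but fell just short of the fold minimum, which it passed without WT 2 (0.22) or TAZG197V 1 (0.25). Sec61g was at 3.28, 3.35, 3.15 and 7.86 CPM in WT and at 3.02, 3.32, 3.29 and 2.90 CPM in TAZG197V. WT 4 was high, and the log2 fold change of -0.50 did not pass (adjusted p = 0.134). It was -0.05 without WT 4 and -0.08 without TAZG197V 4, fits that held 1 surrogate variable instead of 2. Of the 50-base windows of Sec61g, 14.8% are also present in other genes.

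Wfs1, an ER membrane glycoprotein whose loss causes Wolfram syndrome, was at 121.4, 114.0, 115.5 and 121.5 CPM in WT and at 172.5, 150.4, 136.8 and 152.6 CPM in TAZG197V. The groups did not overlap (log2 fold change 0.37, SE 0.0778, adjusted p = 0.00688).

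**Figure D4:**
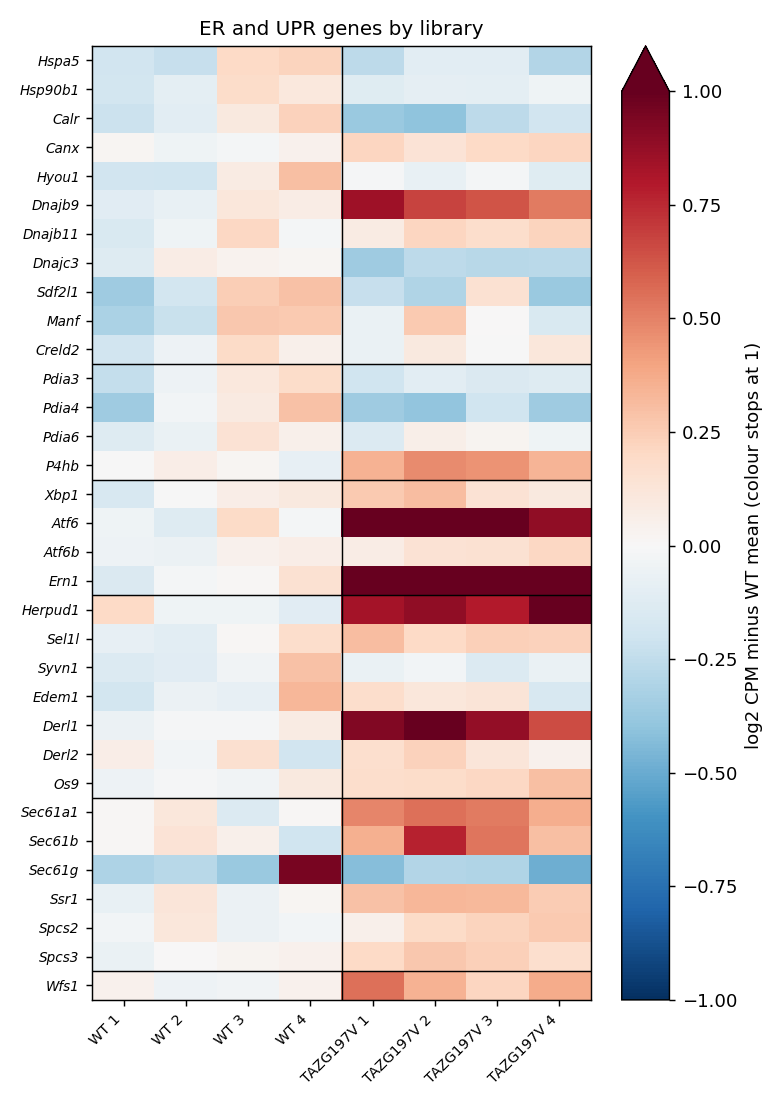
log2 CPM of the 33 tested members in each library minus the mean of the WT libraries, ordered by role (colour stops at 1 in both directions). Atf6 and Ern1 are dark in every TAZG197V library, WT 3 and WT 4 are warm over most chaperone rows, and Sec61g stands out in WT 4.

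Per kilobase of exon the order of the levels also differed. In WT, Hspa5 was first at 157.6 CPM per kb, followed by Calr at 99.1, Herpud1 at 83.4 and P4hb at 81.1 CPM per kb. In TAZG197V, Herpud1 was first at 163.1 and Hspa5 second at 136.7 CPM per kb. Ern1 moved from place 32 of 34 in WT (2.97 CPM per kb) to place 20 (10.5 CPM per kb). Neighbours such as Herpud1 and P4hb in WT lay within their spread of each other.

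Of the promoter-matched members called higher, 0 of 9 held a whole ERSE, against 3 of 4 called lower and 5 of 14 not called. The 3 were Hspa5, Calr and Dnajc3, whose sites are shown above, and the lower member without one was Pdia4. Herpud1, among the 9, held an ERSE-II, and its window ended before the last letter of a possible ERSE. Hspa5 and Pdia4 were called in 4 and 5 of 17 alternative fits, and without WT 4 Dnajc3 was the lower member that remained. In that fit Canx, which holds an ERSE, was called higher, at 0.20 (adjusted p = 0.0232). The remaining gene with an ERSE was Derl3, which was not tested. No p is given for this count, because the members were grouped by the test itself and Atf6, Derl1, Sec61a1 and Spcs3, all higher, had no sequence.

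The rest of the pathway was taken from lists of related genes, none of which holds a member. Of 14 genes of the PERK and ATF4 branch, 12 were higher and 1, Vldlr, was lower (median log2 fold change 1.42). Eif2ak3, which encodes PERK, was at 11.1 ± 0.966 CPM in WT and 11.9 ± 0.634 CPM in TAZG197V (log2 fold change 0.10, adjusted p = 0.437). Atf4 was higher by 2.50 on the log2 scale, its partner Ddit3 (CHOP; of its 2 gene IDs, the one with more counts) by 2.36, the pseudokinase Trib3 by 5.31, and the glutathione-degrading enzyme Chac1 by 3.91. Asns, asparagine synthetase, went from 3.34 ± 1.13 to 238.5 ± 20.9 CPM (log2 fold change 6.11, adjusted p = 3.7e-07). Of these, the promoters of Chac1 and Asns held the CARE letters, as did those of Atf3 and Vldlr among 13 genes of this list with a sequence.

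Of 13 other tested UPR signalling genes, 7 were higher and 0 were lower (median 0.29). The protease gene Mbtps2 was higher by 0.31 (adjusted p = 0.00927), and Mbtps1 was at 0.20 (adjusted p = 0.0509), which became a call without WT 2 (0.23). Among the 7 were Bax (0.86), the ER membrane protein gene Tmbim6 (0.37), and Rtcb (0.32), the ligase that joins the ends of Xbp1 after the cut by IRE1. Of 32 other folding and glycan-processing genes, 9 were higher and 3 lower (37.5% called, near the 33.5% of all genes; median 0.11), among them the oxidase Ero1l (1.00) and the prolyl isomerases Fkbp11 (1.91) and Fkbp10 (-1.09). Of 22 other degradation genes, 11 were higher and 1 lower (median 0.22), including Edem2 (0.64), Ubxn4 (0.59) and the AAA ATPase Vcp (0.42). Of 25 other translocation, signal peptidase and oligosaccharyl transferase genes, 17 were higher and 0 lower (median 0.28), including Ssr4 (0.63), Ssr2 (0.42) and Spcs1 (0.39).

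**Figure D5:**
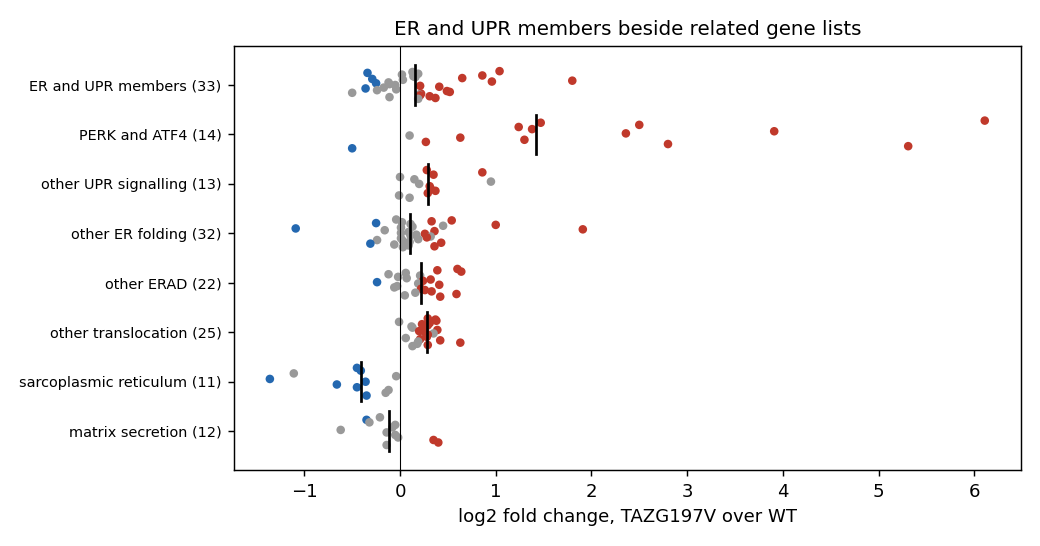
Fitted log2 fold changes of the members and of 7 related lists, 1 dot per tested gene (red called higher, blue called lower, grey not called; vertical bar, median; tested genes in parentheses). The PERK and ATF4 list has a median of 1.42, the members 0.16 and the sarcoplasmic reticulum genes -0.41.

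The specialised ER of muscle was represented by the sarcoplasmic reticulum. Of 11 tested sarcoplasmic reticulum genes, 0 were higher and 7 were lower (median log2 fold change -0.41). The calcium pump Atp2a2 went from 14410 ± 485.8 to 10940 ± 393.6 CPM (log2 fold change -0.41, adjusted p = 0.00508), its inhibitor Pln differed by -0.66 and the calcium-binding Hrc by -1.36. The release channel gene Ryr2 (-0.45, not called without WT 1 or TAZG197V 4) is also in the cardiomyocyte marker list, whose sum was lower in TAZG197V. Of 12 genes for matrix secretion, 2 were higher, the collagen chaperone Serpinh1 (0.40) and Plod2 (0.35), and 1 was lower, Col1a2 (-0.35), which is also a fibroblast marker, with a median of -0.11. This is 25.0% called, under the 33.5% of all genes, and the genotypes overlapped in all 3. Serpinh1 was called in 17 of 17 alternative fits, Plod2 in 10 (adjusted p up to 0.0957) and Col1a2 in 9 (adjusted p up to 0.138, log2 fold change -0.54 to -0.25). Plod2 was not called without WT 2, 3 or 4 or TAZG197V 1, 2 or 4, nor Col1a2 without WT 1 or 2 or TAZG197V 1 or 2.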

How the data were processed

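RNA was extracted from heart pieces of WT and TAZG197V mice (4 libraries each), and per the study's methods 50-base single-end reads were sequenced. The authors trimmed and demultiplexed them with bcl2fastq 2.20.0, checked them with FastQC 0.11.9, aligned them to mm10 with STAR 2.7.3a allowing at most 2 mismatches, and counted reads over the exons of each gene with featureCounts of Subread 2.0.0. The deposited values are raw counts, 1 whole number for each Ensembl gene. Annotation release, strand setting and treatment of reads with several alignments are not given in the sources used here, and levels of genes that overlap or have near-identical copies are therefore uncertain. Symbols and positions came from GENCODE M21 on GRCm38, the assembly of mm10. The 92 spike-in rows held 0 counts and were left out.

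The fit used edgeR 4.0.16 in R 4.3.3: filterByExpr by genotype, TMM scaling, 2 surrogate variables from svaseq (sva 3.50.0, seed 1), and the two-sided quasi-likelihood F-test with Benjamini-Hochberg adjustment over 15084 genes. SE was computed as the absolute log2 fold change over the root of the F statistic. A called gene had an adjusted p under 0.05, a change of over 15% (the study's cut-off) and a mean scaled count of at least 50. Log2 CPM used a prior count of 2. Surrogate variables enter the fit but not the CPM. Alternatives were DESeq2 1.42.0, other covariates, other scaling and filters, and omission of libraries. The fit was tested on simulated data. Replicates of a genotype differed by a chi-square of at least 10.2 per gene, more than sampling noise gives. WT 4 stood apart, at 123 to 156 per gene from the other WT libraries, which differed by 16.6 to 31.1 among themselves, and TAZG197V pairs by up to 34.8. The labels give separate samples without stating 1 mouse for each, so p-values measure the spread between these samples. Lane numbers came from the deposited files.

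The members and lists were chosen with earlier results of these data known. All members are accounted for. From each related list, up to 4 called genes with the largest change could be named, besides Taz, Eif2ak3, Atf4, Ddit3, Trib3, Chac1, Asns, Mbtps1, Mbtps2 and Atp2a2 whatever their value. Vldlr and Atf3 are outside this rule and were named after their values were seen. Motif letters were the published consensus as known from background, and the CARE was shortened by 1 base after a first search. Promoters came from RefSeq, and shared 50-base windows and exon overlaps from GENCODE M21.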

Additional observations from a re-analysis of the deposited data

Results flagged for a closer look

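In 78 sets of 4 libraries, 1 per genotype for each tested member and each sum over a role, 2 held a library far from the other 3 by Dixon's criterion at the 95% level, where chance gives about 5% of sets. In TAZG197V, Dnajc3 was low in TAZG197V 1, with a gap over range of 0.911 (log2 CPM 5.82 against 5.90 to 5.91), a small distance in absolute terms. In WT, Sec61g was high in WT 4, with a gap over range of 0.931 (log2 CPM 2.99 against 1.68 to 1.77), the library that also held the most red cell markers. The part of that library's other features in the Sec61g value was not tested.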

How the results depend on the processing

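Of the 17 called members, 12 were called in all 17 alternative fits, 11 of them higher and 1, Dnajc3, lower. The counts of called and of higher members stayed within 1.5 times under every alternative fit, but with a minimum of 1.5-fold they were 5 and 5, with 0 lower. The count of lower members, 4, was 2 without surrogate variables, with 1 surrogate variable, without a low-count filter and without both number 4 libraries, and 1 to 5 when single libraries were left out. It was 1 without WT 4, 5 without WT 1, and 2 without any other library, where the fits without WT 2, WT 4 or TAZG197V 4 also held 1 surrogate variable instead of 2. With the replicate block it was 2, and the block changed the called members to 15. Deviations of same-numbered libraries correlated at 0.277, 0.0436, 0.280 and 0.416, and not every library correlated best with its own number, so the numbers were not taken to pair samples. Members near 0 changed sign. Hyou1 was 0.02 without the filter, 0.07 without both number 4 libraries and -0.20 to 0.05 when single libraries were left out. Manf was 0.02 with lane, 0.01 with the replicate block, 0.11 without the filter, 0.16 without both number 4 libraries and -0.21 to 0.13 over omissions. Pdia6 was 0.003 without the filter, 0.004 without both number 4 libraries and -0.10 to 0.02 over omissions, and Syvn1 was 0.02 without both and -0.17 to 0.02. Creld2 ranged from -0.06 to 0.11 and Edem1 from -0.06 to 0.23 over omissions. The causes were not tested. Derl3, at 1 to 7 counts per library, was too low to be tested.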
